A study of Mus musculus with 7 samples.

Results

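The 10 mouse genes described here make and control major histocompatibility complex (MHC) class II antigen presentation. They were found by matching gene names in the deposited expression table: Cd74, H2-Aa, H2-Ab1, H2-Eb1, H2-DMa, H2-DMb1, H2-DMb2, H2-Oa, H2-Ob and Ciita. All 10 were among its 50435 gene rows, and all 10 averaged at least 1 RPM (1 read in a library of 1000000), the minimum for entering the test with 14100 genes in all.

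The 7 libraries came from bone marrow cells sorted as sinusoidal endothelium, the lining of the marrow's wide venous vessels. Wild-type recipient mice had been irradiated and transplanted with Zbtb46dtr marrow, so donor-derived blood cells of both groups carried a diphtheria toxin receptor tied to Zbtb46, a gene used to mark classical dendritic cells. After 8 weeks, 4 samples were taken from mice injected with PBS and 3 from mice injected with 200 ng of diphtheria toxin (DT) in PBS, in each case 1 day after the injection. The sort kept CD31+ Sca1- cells that were negative for CD45, Ter119, Gr1 and CD11b. The labels call the samples of a group biological replicates, without saying whether each came from 1 mouse, and strain, age and sex were not given in the sources used here. Depth, read from the smallest steps between values, was 33195021 to 51245260 reads per library.

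Class II molecules display peptides from ingested proteins to CD4+ T cells. An alpha and a beta chain assemble in the endoplasmic reticulum with the invariant chain, encoded by Cd74, which fills the peptide groove and steers the complex to endosomes. There cathepsins cut the invariant chain down to a short fragment, the DM heterodimer exchanges that fragment for peptides, and the DO heterodimer holds DM in check. Ciita encodes the coactivator that switches the set on. Dendritic cells, macrophages and B cells carry class II constitutively, and endothelium can take it up after interferon gamma.

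The labelled cell type was first set against its markers. The 12 endothelial genes on the list, such as the endothelial cadherin gene Cdh5, summed to 1.45 to 9.35 RPM across PBS libraries and to 10.2 to 18.7 RPM across DT libraries, less than H2-Aa alone in any library. Cdh5 averaged 0.811 ± 1.27 RPM (SD) over the 4 PBS libraries against 2.10 ± 1.18 over the 3 DT libraries, and Esam, an adhesion gene of endothelial junctions, 0.813 ± 1.16 against 2.81 ± 1.96. Class II RNA is therefore described for the sorted samples as a whole and is not assigned to endothelial cells. In such bulk samples, fewer cells of a type and less RNA per cell cannot be told apart.

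Class II RNA was higher after DT for 7 of the 10 genes, by 2.06-fold to 4.87-fold in mean RPM, and the groups did not overlap for any of these 7. The 7 were Cd74, both I-A chain genes, the I-E beta chain gene H2-Eb1 and all 3 DM genes. The DO genes H2-Oa and H2-Ob and the coactivator gene Ciita did not pass the threshold, and no member was lower. Members were read from a limma fit over all 14100 genes on log2(RPM + 1), with Benjamini-Hochberg adjustment and a threshold of 0.05. In that fit 32.0% of all tested genes were called, 13.4% as higher in DT and 18.6% as lower (1894 and 2622 genes, or 2365 and 1321 under median-ratio scaling). The groups stood apart without overlap, DT above, in 16.1% of genes and, DT below, in 24.7%. The median log2 difference was 1.38 over the 10 members and -0.23 over all tested genes. Summed over the 10 genes, class II RNA was at 1130, 623, 1172 and 864 RPM in PBS replicates 1 to 4 and at 2306, 2837 and 3339 RPM in DT replicates 1 to 3.

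**Figure D1:**
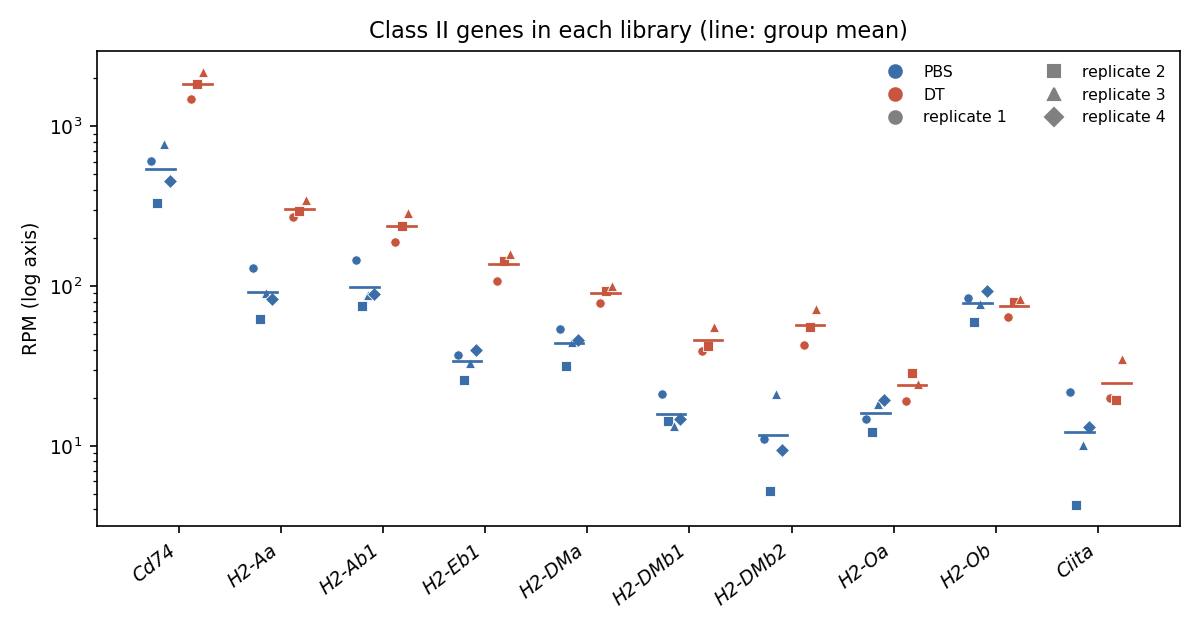
RPM (log axis) of each class II gene in every library, blue for the 4 PBS and red for the 3 DT libraries; each point is 1 library, its shape gives the replicate number and the line is the group mean. The DT points lie above all PBS points for the 7 genes from Cd74 to H2-DMb2, and the groups overlap for H2-Oa, H2-Ob and Ciita.

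Promoter sequence is shown because called and uncalled members share the same short pattern. Class II promoters are known for an X box, bound by the RFX complex, and a Y box, whose ATTGG core is bound by NF-Y; Ciita joins these factors without binding DNA. RefSeq promoter windows on GRCm38 (mm10) matched 7 members, and the 250 bases before each start were searched on both strands for AAC followed after 23 to 27 bases by TGATTGG. The spacing was set from these sequences after they had been read, so the counts that follow are a description and not a test of enrichment. The pattern was present in 6 of the 7 members, counted by gene, and in 0.460% of all 32851 windows (151). TGATTGG by itself, which the pattern contains, was in 7.23% of windows. It was found in neither of the 2 windows of H2-DMa, but these sit at RefSeq starts 3291 and 5977 bases downstream of the GENCODE start of the gene, so the stretch before that start was not searched. The RefSeq start of H2-DMb2 likewise lies 1942 bases downstream of its GENCODE start. The stretch in H2-DMb1 lies in an annotated exon and is not printed. Of the printed H2-Oa stretch, 15 bases also lie in an annotated exon. The RefSeq starts of H2-DMb1 and H2-Oa lie 119 and 39 bases downstream of their GENCODE starts. Below, 5′ to 3′ on the gene's strand, capitals mark AAC and TGATTGG in H2-Aa, H2-Eb1 and H2-DMb2, which rose, and in H2-Oa and H2-Ob, which did not pass.
H2-Aa, chr17:34287853-34287916, minus strand: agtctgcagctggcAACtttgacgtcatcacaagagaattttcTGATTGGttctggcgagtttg
H2-Eb1, chr17:34305764-34305826, plus strand: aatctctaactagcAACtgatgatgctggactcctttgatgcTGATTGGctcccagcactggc
H2-DMb2, chr17:34145114-34145177, plus strand: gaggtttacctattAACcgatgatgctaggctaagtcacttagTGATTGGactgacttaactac
H2-Oa, chr17:34092291-34092354, plus strand: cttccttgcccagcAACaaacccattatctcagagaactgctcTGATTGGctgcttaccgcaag
H2-Ob, chr17:34238806-34238866, plus strand: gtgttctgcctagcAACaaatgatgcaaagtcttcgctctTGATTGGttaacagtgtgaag
The gap between both marked parts was 26 bases in H2-Aa, H2-DMb2 and H2-Oa, 25 in H2-Eb1 and 23 in H2-Ob. AAC began 79, 89, 121, 74 and 85 bases before the RefSeq start in H2-Aa, H2-Eb1, H2-DMb2, H2-Oa and H2-Ob. A match describes letters and not binding, and these libraries hold no measurement of binding.

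The invariant chain gene Cd74 was the most abundant member. It lies on chromosome 18 at 60803848 to 60812652 (mm10, GENCODE vM21; all gene positions below are from this annotation). Its level was 611, 332, 776 and 456 RPM in PBS replicates 1 to 4 and 1474, 1841 and 2179 RPM in DT replicates 1 to 3. The lowest DT library was thus well above the highest PBS library. Cd74 rose by 1.80 ± 0.27 (SE) on the log2 scale, with an adjusted p of 0.00106 in limma, a 3.37-fold difference in mean RPM. Cd74 made up 52.8% to 66.2% of the summed class II RPM in PBS libraries and 63.9% to 65.3% in DT libraries.

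The I-A heterodimer, which presents peptide at the cell surface, is made of the alpha chain from H2-Aa (chromosome 17, 34282744 to 34287823) and the beta chain from H2-Ab1 (chromosome 17, 34257689 to 34269419). H2-Aa was at 129, 62.7, 91.0 and 83.3 RPM in the PBS libraries and at 270, 294 and 345 RPM in the DT libraries. H2-Ab1 was at 145, 75.4, 87.7 and 89.2 RPM in PBS and at 190, 239 and 285 RPM in DT. Both chains therefore moved the same way in every DT library, and for both PBS replicate 1 was the highest PBS library. The log2 difference was 1.76 ± 0.22 (SE) for H2-Aa (limma, adjusted p = 0.000348) and 1.28 ± 0.23 for H2-Ab1 (adjusted p = 0.00285).

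H2-Eb1 (chromosome 17, 34305867 to 34316674) encodes the beta chain of I-E, the other mouse class II molecule. It was at 37.0, 25.9, 33.2 and 39.8 RPM in PBS and at 107, 145 and 160 RPM in DT. Its PBS values were close together, and it had the smallest adjusted p of the 10 members (limma, log2 difference 1.98 ± 0.20, adjusted p = 8.26e-05), a 4.04-fold difference in mean RPM. H2-Ea-ps, annotated as the pseudogene of the partner alpha chain, sat at the table's offset in 6 of 7 libraries and at 0.0792 RPM in PBS replicate 3, where 3 reads equal 0.0791 RPM. H2-Eb2, a second E beta gene next to H2-Eb1, averaged 0.189 RPM in PBS and 0.672 RPM in DT, below the minimum for testing.

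The DM genes encode the endosomal catalyst of peptide exchange, with the alpha chain from H2-DMa (chromosome 17, 34119541 to 34139101) and beta chains from H2-DMb1 (34153072 to 34160230) and H2-DMb2 (34143307 to 34151555). The first part of H2-DMa overlaps Brd2 on the other strand, and without strand information reads from the shared stretch cannot be told apart. H2-DMa was at 53.8, 31.6, 45.0 and 46.0 RPM in PBS and at 78.7, 93.6 and 100.2 RPM in DT. H2-DMb1 was at 21.2, 14.2, 13.4 and 14.7 RPM in PBS and at 39.1, 42.5 and 55.7 RPM in DT. H2-DMb2 was at 11.04, 5.21, 21.0 and 9.43 RPM in PBS and at 42.9, 55.8 and 71.8 RPM in DT. All 3 were higher in every DT library than in any PBS library, and H2-DMb2 had the largest PBS spread relative to its mean of the 3 (11.7 ± 6.69 RPM, SD, n = 4). The log2 differences were 1.04 ± 0.20 (SE) for H2-DMa, 1.48 ± 0.22 for H2-DMb1 and 2.31 ± 0.38 for H2-DMb2, with adjusted p in limma of 0.00347, 0.000973 and 0.00171.

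The division of reads between both DM beta genes is uncertain. Their longest transcripts were 94.6% identical over 1219 aligned bases, and 27.2% of the 50-base windows of the H2-DMb1 transcript occurred exactly in H2-DMb2 transcripts, against 25.2% in the other direction. Reads were 50 bases long, so such windows cannot be assigned by sequence alone, and how the authors counted them was not given in the sources used here. No such window was shared between any other pair of members. The ratio of H2-DMb2 to H2-DMb1 in RPM was 0.522, 0.367, 1.57 and 0.643 in the PBS libraries and 1.10, 1.31 and 1.29 in the DT libraries, so PBS replicate 3 stood above all DT libraries in this ratio.

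Neither DO gene was called. H2-Ob (chromosome 17, 34238903 to 34254414), the beta chain of the DM inhibitor, was at 84.4, 60.03, 76.9 and 93.05 RPM in PBS and at 64.5, 79.2 and 83.03 RPM in DT. Every DT value lay inside the PBS range. Its log2 difference was -0.05 with a 95% interval from -0.45 to 0.35 (limma, adjusted p = 0.865), an interval that holds neither the 1.04 of H2-DMa nor any larger member difference. The sign of this difference turned under 5 of the 15 alternatives. H2-Oa (chromosome 17, 34092340 to 34095234), its alpha chain partner, was at 14.6, 12.2, 18.2 and 19.3 RPM in PBS and at 19.2, 28.4 and 24.5 RPM in DT. Its groups overlapped only through DT replicate 1, which sat just below PBS replicate 4. The log2 difference of H2-Oa was 0.55 with a 95% interval from 0.03 to 1.07 (limma, adjusted p = 0.0960), and it passed under median-ratio scaling (0.0331).

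Ciita (chromosome 16, 10480059 to 10528418), the coactivator gene, was at 21.6, 4.29, 10.07 and 13.1 RPM in PBS and at 19.8, 19.4 and 34.9 RPM in DT. PBS replicate 1 lay above both lower DT libraries. The mean was 2.01-fold higher in DT, but the log2 difference of 1.09 ± 0.44 (SE) missed the threshold (limma, adjusted p = 0.0876; 95% interval 0.09 to 2.08). Without PBS replicate 1 the difference was 1.40 with an adjusted p of 0.0160, and with sample weights the adjusted p was 0.0259. The test therefore leaves the direction of Ciita uncalled, with an interval that reaches from near 0 to above the value of Cd74.

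**Figure D2:**
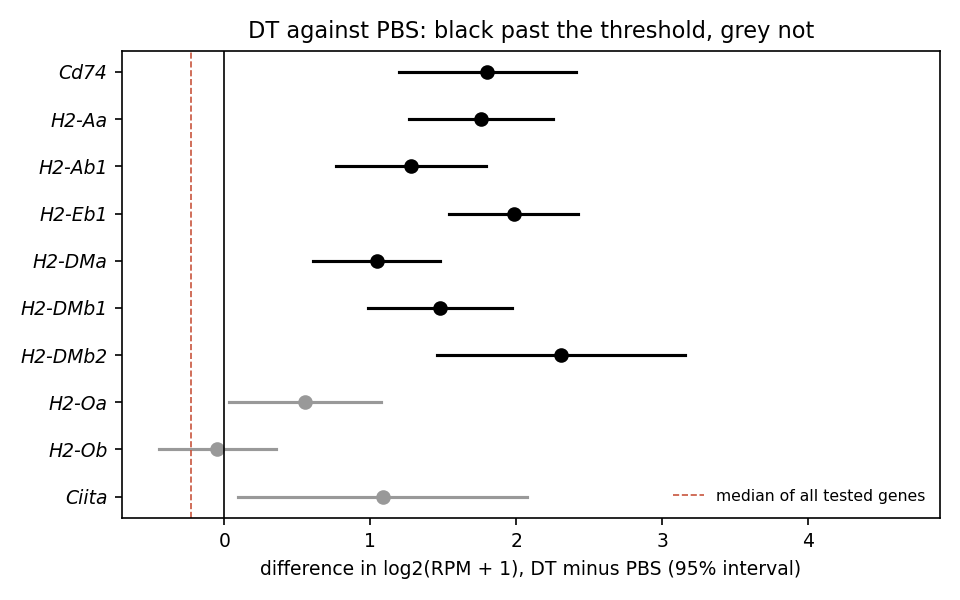
Difference in log2(RPM + 1), DT minus PBS, for each class II gene with its 95% interval from the limma fit over all genes; black marks genes past the threshold, grey the others, and the dashed line is the median of all tested genes, -0.23. The 7 black intervals lie wholly above 0, H2-Ob straddles 0, and the intervals of H2-Oa and Ciita begin just above 0 at 0.03 and 0.09.

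Whether members moved by different amounts was compared within libraries by taking each gene relative to Cd74, a ratio in which gene length and library scaling cancel apart from the pseudocount. H2-Ob relative to Cd74 was -2.72 ± 0.46 (SD, n = 4) on the log2 scale in PBS and -4.57 ± 0.11 (SD, n = 3) in DT, without overlap. H2-Oa relative to Cd74 was -4.94 ± 0.43 in PBS and -6.19 ± 0.23 in DT, also without overlap. In an exact two-sided permutation test over 35 splits, both ratios gave p = 0.0286, the smallest this design allows. After adjustment over the 9 ratios both were at 0.129, so neither passed, nor did any other of the 9. A ratio at that smallest p passes this adjustment only if most of the 9 reach it. The adjusted test therefore could not decide on single ratios. The ratios of H2-DMa and H2-DMb2 to Cd74 also stood apart without overlap, lower for H2-DMa and higher for H2-DMb2 in DT (exact p = 0.0571 and adjusted p = 0.129 for each). H2-Aa, H2-Ab1, H2-Eb1, H2-DMb1 and Ciita overlapped between groups in this ratio, with exact p of 0.914, 0.143, 0.629, 0.400 and 0.229.

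**Figure D3:**
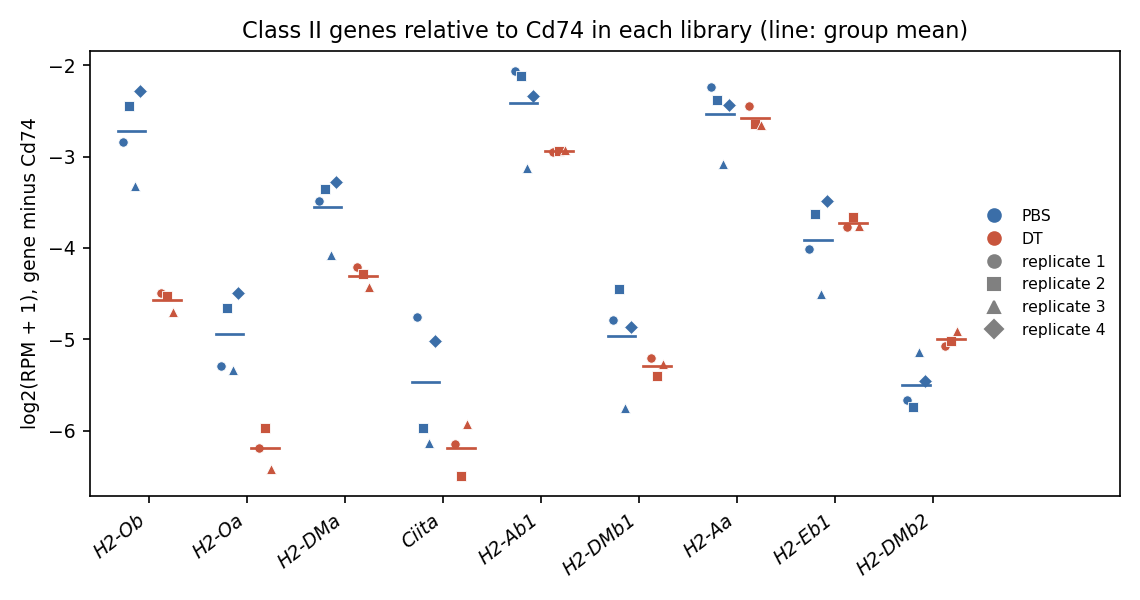
Each class II gene relative to Cd74 in the same library, as the difference of log2(RPM + 1) values, ordered by the DT minus PBS difference; points are libraries, colours are groups and lines are group means. H2-Ob and H2-Oa, at the left, had the lowest DT minus PBS differences, with means of -2.72 and -4.57 and of -4.94 and -6.19 in PBS and DT, and DT libraries scatter less than PBS libraries for all 9 genes.

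DO genes were also set against DM genes in the same library. The ratio of H2-Ob to the sum of both DM beta genes in RPM was 2.62, 3.09, 2.24 and 3.86 in the PBS libraries and 0.786, 0.805 and 0.651 in the DT libraries. The groups were far apart, with H2-Ob above the DM beta sum in each PBS library and below it in each DT library. The alpha chain ratio, H2-Oa to H2-DMa, was 0.272, 0.386, 0.406 and 0.419 in PBS and 0.244, 0.303 and 0.244 in DT, where PBS replicate 1 fell among the DT libraries. These pairs were chosen after their values were seen and were not tested.

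Levels of different members were compared per kilobase of the longest annotated transcript. In RPM per kb, Cd74 led at 386 ± 136 in PBS (SD, n = 4) and 1299 ± 250 in DT (SD, n = 3), followed by H2-Ab1 at 82.1 ± 25.8 and 196 ± 39.3. Those were the top members, and Ciita was the lowest, in all 7 libraries. In PBS, H2-Ob (29.4 ± 5.25), H2-Aa (28.4 ± 8.61), H2-DMa (22.0 ± 4.61) and H2-Eb1 (20.4 ± 3.61) came next and did not differ from their neighbours beyond the spread. H2-Oa (12.0 ± 2.45), H2-DMb1 (11.3 ± 2.55) and H2-DMb2 (7.87 ± 4.51) formed a lower tier whose spreads overlapped, above Ciita at 2.04 ± 1.20. In DT the order was the same in all 3 libraries. H2-Aa (94.0 ± 11.8) and H2-Eb1 (82.3 ± 16.2) overlapped in spread below H2-Ab1, and H2-DMa (45.3 ± 5.50), H2-DMb2 (38.3 ± 9.77) and H2-DMb1 (32.6 ± 6.24) overlapped as neighbours. H2-Ob (28.3 ± 3.66) and H2-Oa (17.9 ± 3.46) were now below all DM genes, H2-Ob within the spread of H2-DMb1, and above Ciita at 4.11 ± 1.47. The longest H2-Aa model has 3223 bases against 1212 for H2-Ab1, so the place of H2-Aa depends on that choice of transcript.

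Of the 10 members, 8 lie together on chromosome 17, with Cd74 and Ciita on chromosomes 18 and 16. The span from H2-Oa to H2-Eb2 covers 249 kb and holds 18 annotated genes with a row in the table, of which 15 were tested. Class II genes on this span were higher for 6 of 8. None of the other 7 tested genes passed in limma, with 1 higher (Tap2) and 1 lower (Brd2) at an unadjusted p under 0.05. Over all tested genes 13.4% were called higher and 18.6% lower, and none among 7 genes does not set these neighbours apart from those shares. Between the DM genes and H2-Ob sit the genes for class I peptide supply. Psmb8 and Psmb9, which encode immunoproteasome subunits, averaged 178 ± 39.1 and 95.6 ± 22.2 RPM over PBS libraries (SD, n = 4), against 222 ± 28.1 and 99.3 ± 1.31 over DT libraries (SD, n = 3). Tap1, a subunit of the peptide transporter, was at 76.6 ± 18.2 against 81.9 ± 10.7 RPM. Tap2, its other subunit, was at 58.4 ± 13.1 against 81.9 ± 10.3 RPM (limma, adjusted p = 0.0729) and passed under median-ratio scaling (0.0153), quantile normalization (0.0433), the replicate block (0.0428) and without PBS replicate 4 (0.0408). Brd2, a chromatin reader gene that overlaps the start of H2-DMa, was at 135 ± 7.96 against 99.5 ± 24.0 RPM (adjusted p = 0.0625), and passed as lower with sample weights (0.0343) and without DT replicate 2 (0.0261). Btnl2, which is related to costimulatory molecules, was on the list of neighbours but averaged 0.329 and 1.08 RPM and was not tested. Psmb8, Psmb9, Tap1, H2-Ea-ps, H2-Eb2 and Btnl2 were named after their values were seen.

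**Figure D4:**
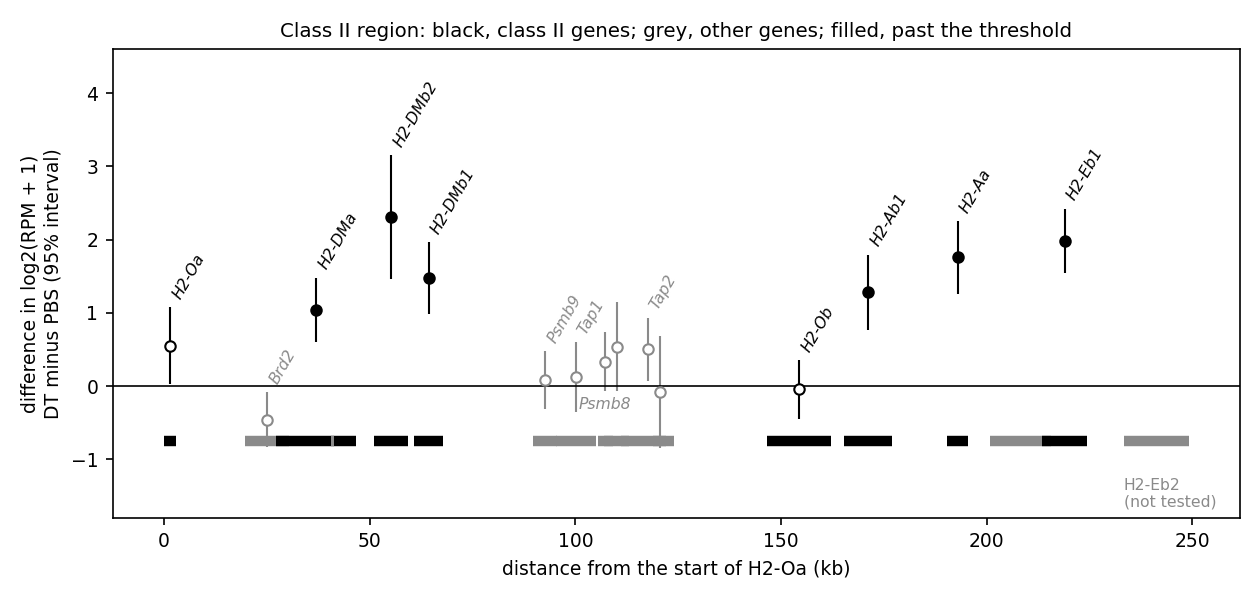
Difference in log2(RPM + 1), DT minus PBS, with 95% intervals, against distance from the start of H2-Oa in kb; bars near the bottom mark gene bodies, black for class II genes and grey for others, and filled points passed the threshold. Filled points are the 6 class II genes from H2-DMa to H2-DMb1 and from H2-Ab1 to H2-Eb1, while H2-Oa, H2-Ob and the 7 other tested genes, including 2 unlabelled predicted non-coding genes, are open.

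The factors that bind the X and Y boxes were not called. None of 7 genes (Rfx5, Rfxank, Rfxap, Nfya, Nfyb, Nfyc and Creb1) passed the threshold in limma. Over all tested genes 32.0% passed, and none among 7 genes does not set this list apart from that share. At an unadjusted p under 0.05, 0 of the 7 were higher and 1, Rfxap, was lower. The median log2 difference of the 7 was -0.27, close to the -0.23 of all tested genes. Rfxap, a subunit of the RFX complex, averaged 4.01 ± 0.931 RPM over the 4 PBS libraries (SD) against 2.01 ± 0.785 over the 3 DT libraries, with an adjusted p of 0.0893. Nfya, the DNA-contacting subunit of NF-Y, was at 28.6 ± 5.46 against 20.5 ± 5.20 RPM (adjusted p = 0.134).

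Of 11 listed genes that control Ciita 9 were tested, 4 rose and 1 fell in limma, with a median log2 difference of 0.74. Over all tested genes 13.4% were called higher and 18.6% lower. A single fall among 9 genes does not set this list apart from the share called lower. Interferon gamma is the classic inducer of Ciita outside dendritic cells and B cells. Its receptor genes Ifngr1 and Ifngr2 went from 134 ± 25.5 to 222 ± 24.8 RPM (adjusted p = 0.0113) and from 51.7 ± 9.34 to 88.04 ± 1.91 RPM (adjusted p = 0.00753). Without DT replicate 1 the Ifngr1 call was absent (adjusted p = 0.0551). Spi1, which encodes the myeloid and B cell factor PU.1, rose most, from 20.6 ± 9.27 to 89.5 ± 7.64 RPM (adjusted p = 0.00131). The gene that fell was Irf4, an interferon regulatory factor of lymphocytes and dendritic cells, from 141 ± 48.9 to 65.6 ± 20.8 RPM (adjusted p = 0.0157); it was named after its value was seen, and the call was absent under median-ratio scaling, under the replicate block and without DT replicate 1 or DT replicate 3. Irf1, Irf8, Jak1 and Jak2 did not pass, and Socs1 and Prdm1 were too low to be tested.

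Accessory genes of class II were higher for 5 of 9 tested, out of 11 listed, and lower for none, with a median log2 difference of 1.05. Besides endosomal genes, the list holds the surface receptor gene Cd44, the cytokine gene Mif and the untested H2-Eb2 and H2-Ea-ps. Over all tested genes 13.4% were called higher and 18.6% lower. Ctss encodes cathepsin S, which makes the last cuts in the invariant chain, and rose from a mean of 66.8 ± 18.1 RPM over PBS libraries (SD, n = 4) to 187 ± 34.8 over DT libraries (SD, n = 3; limma, adjusted p = 0.00104). Ctsb and Ctsd, lysosomal proteases with many substrates, rose from 271 ± 19.7 to 741 ± 201 RPM and from 153 ± 41.3 to 544 ± 148 RPM. Cd44, a surface receptor that pairs with CD74 in signalling, rose from 141 ± 18.9 to 288 ± 2.83 RPM. The other gene that rose, Ifi30, encodes a thiol reductase that opens disulfide bonds of antigens, and it went from 19.6 ± 6.32 to 40.4 ± 0.618 RPM (adjusted p = 0.00862; named after its value was seen). The 4 that did not pass were Ctsl, Lgmn, Mif and Sppl2a.

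Costimulatory genes, which accompany class II on activated presenting cells, were listed with the checkpoint ligand genes Cd274 and Pdcd1lg2, and were low in PBS. Of 6 listed 4 were tested and 3 rose in limma, Cd274 among them. Over all tested genes 13.4% were called higher and 18.6% lower. Icosl, the ligand of the T cell receptor ICOS, rose from 1.59 ± 0.661 to 27.7 ± 3.75 RPM (adjusted p = 3.41e-05). Cd86, a ligand of CD28, rose from 1.54 ± 1.71 to 20.9 ± 7.33 RPM (adjusted p = 0.000790), and Cd274, which encodes the checkpoint ligand PD-L1, from 1.75 ± 0.714 to 7.34 ± 1.63 RPM (adjusted p = 0.00376). Cd40 was tested and did not pass, and Cd80 and Pdcd1lg2 averaged under 1 RPM over the libraries.

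Monocyte and macrophage markers and part of the classical dendritic cell list rose along with the class II genes, while plasmacytoid dendritic cell markers were mixed. Their part in the class II difference was not tested. Beside the counts for the cell type lists here and below, 13.4% of all tested genes were called higher and 18.6% lower. All 14 monocyte and macrophage genes rose, summing to 431 to 922 RPM in PBS against 7240 to 9162 in DT; Lyz2 and Ly6c2, the most abundant, went from 366 ± 95.3 to 5890 ± 722 RPM and from 113 ± 43.8 to 867 ± 28.6 RPM. Of 12 classical dendritic cell genes 9 were tested and 5 rose, with sums of 51.9 to 93.3 RPM in PBS against 117 to 148 in DT. The most abundant of these were Ccr7, at 29.7 ± 14.3 and 33.5 ± 2.32 RPM, and Naaa, which rose from 6.55 ± 1.60 to 38.2 ± 3.89 RPM. The other genes of the list that rose, named after their values were seen, were Cd209a (2.11 ± 0.874 to 12.6 ± 0.546 RPM), Flt3 (1.37 ± 1.95 to 7.61 ± 2.76), Clec10a (1.45 ± 2.06 to 7.83 ± 1.79) and Itgax (1.06 ± 1.15 to 5.43 ± 2.88). Xcr1 and Clec9a, known from the type 1 subset and also named after their values were seen, averaged at most 0.548 RPM in either group. Zbtb46, the gene that drives the toxin receptor, was at 1.54, 17.5, 10.4 and 7.45 RPM in PBS and at 0.0248, 3.12 and 1.56 RPM in DT (limma, adjusted p = 0.0556). Over the PBS libraries Zbtb46 ranked in the same order as the erythroid sums given below, and which cells its RNA came from was not tested. Of 10 plasmacytoid dendritic cell genes 4 rose and 1 fell, with sums of 473 to 820 RPM in PBS against 564 to 686 in DT. The most abundant genes of this list, Ly6d and Tcf4, are shared with B cells, and Tcf4 was the one that fell. The 4 that rose, each without overlap, were named after their values were seen. They were Siglech (3.69 ± 3.20 to 40.9 ± 14.0 RPM), Ccr9 (1.38 ± 1.24 to 12.0 ± 6.44), Runx2 (3.87 ± 2.07 to 15.5 ± 2.86) and Pacsin1 (0.0884 ± 0.142 to 2.47 ± 0.914).

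B-lineage markers split by stage. Of 9 precursor genes 7 fell and none rose, with sums of 3547 to 5388 RPM in PBS against 1656 to 1892 in DT; Vpreb3 and Igll1, both of the surrogate light chain system, fell to 383 ± 29.0 RPM (from 1062 ± 176) and to 398 ± 46.0 RPM (from 1004 ± 354). Of 10 genes on the mature B cell list 3 rose and 2 fell, with sums of 2119 to 3893 RPM in PBS against 1967 to 2414 in DT. The 2 that fell, Cd79a and Cd79b, encode the signalling chains of the B cell receptor and are also on in precursors, with PBS means of 1268 ± 258 and 1126 ± 290 RPM against DT means of 718 ± 36.2 and 651 ± 67.7. The call for Cd79b was absent under 9 of the 15 alternatives, and that for Cd79a without a filter (adjusted p = 0.0538) and under median-ratio scaling (0.0643), where neither gene was called. The 3 that rose, named after their values were seen, were Fcer2a (CD23), from 3.72 ± 3.58 to 43.9 ± 16.0 RPM, Cr2 (CD21), from 1.04 ± 0.297 to 6.90 ± 0.685 RPM, and Ighd, the IgD heavy chain, from 54.0 ± 19.4 to 120 ± 26.7 RPM. All 3 are known from mature naive B cells.

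Markers of cell types that carry little class II moved as well. All 12 neutrophil genes rose, from sums of 1875 to 4244 RPM in PBS to 55507 to 59843 RPM in DT, led by Ngp and S100a8. All 10 T and natural killer cell genes rose, from 22.5 to 53.6 RPM to 327 to 346 RPM, and for Klrb1c the call was absent without a filter or without any 1 of the DT libraries. Of 12 erythroid genes 9 fell and 3 rose, with sums of 1019, 11207, 7450 and 6874 RPM in PBS replicates 1 to 4 and 1565 to 2078 RPM in DT. Of 6 plasma cell genes 4 were tested, with sums of 276 to 427 RPM in PBS against 503 to 623 in DT: Jchain and Xbp1 rose, and Mzb1 fell, from 234 ± 58.2 to 127 ± 6.80 RPM.

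**Figure D5:**
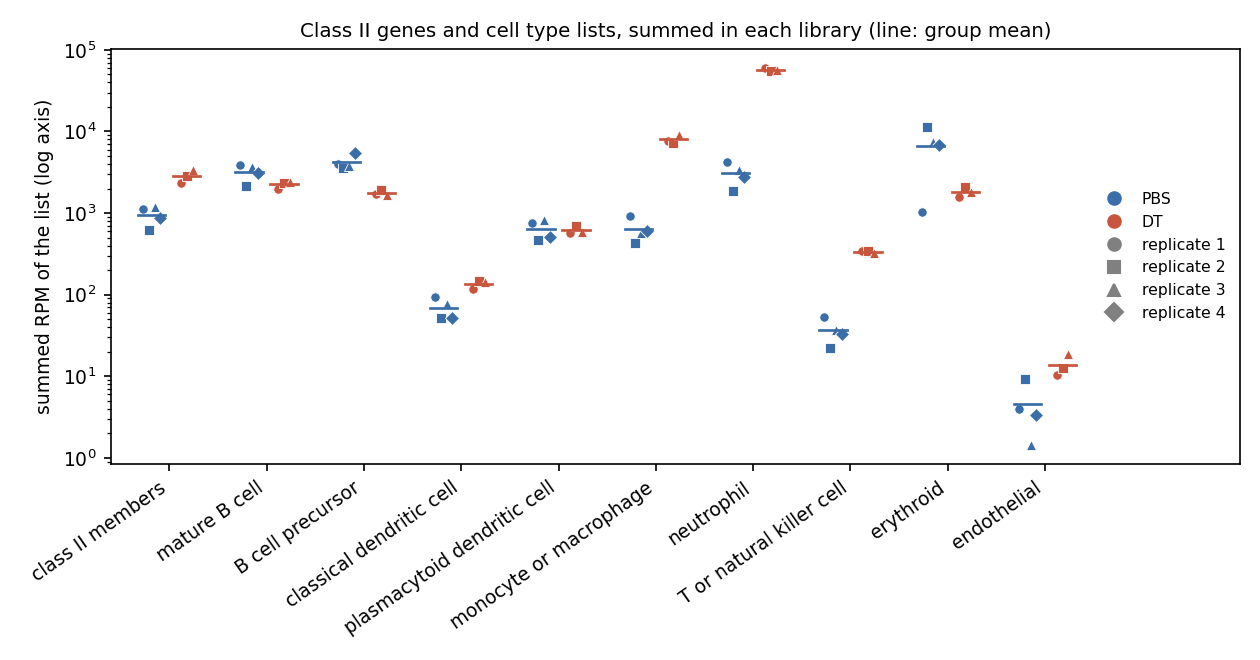
Summed RPM (log axis) of the 10 class II genes and of 9 of the cell type lists (plasma cells are not drawn) in every library, blue for PBS and red for DT; point shapes are replicate numbers and lines are group means. Class II, classical dendritic, monocyte or macrophage, neutrophil, T or natural killer and endothelial sums are higher in all 3 DT libraries, the B cell precursor sum is lower, and the remaining sums overlap.

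Among PBS libraries, replicate 2 was the lowest for 9 of the 10 members, all but H2-DMb1. The same library had the lowest PBS sums of the mature B cell, monocyte or macrophage and neutrophil lists and the highest erythroid sum. PBS replicate 1, with the lowest erythroid sum and the highest mature B cell and monocyte or macrophage sums, was highest for H2-Aa, H2-Ab1, H2-DMa, H2-DMb1 and Ciita. Cd74 and H2-DMb2 were instead highest in PBS replicate 3, and H2-Eb1, H2-Oa and H2-Ob in PBS replicate 4. A link between the ranks of members and of cell type sums was not tested. Among DT libraries, replicate 3 was highest for 9 members, all but H2-Oa, and replicate 1 lowest for 9, all but Ciita. The 7 calls held without any 1 of the libraries.

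The genes whose pattern over the 7 libraries was most like that of Cd74, H2-Aa, H2-Ab1 and H2-Eb1 were, in order of likeness, Bcl6, Arhgap4, Sat1, Ppfia4, Myo1g, Ptpn6, Mov10 and Tnfaip8l2. Likeness was the Euclidean distance between log2(RPM + 1) profiles centred on their own mean, and it ran from 0.262 to 0.444 for these 8. They share the libraries and the group difference with the class II genes, and 8.04% of all tested genes correlated with the class II profile above 0.9 (Pearson, given as a description). Bcl6, a transcriptional repressor of B cells and other leukocytes, averaged 6.44 ± 1.65 RPM over the 4 PBS libraries (SD) against 22.1 ± 2.30 over the 3 DT libraries. Ptpn6, the phosphatase SHP-1 of blood cells, averaged 151 ± 38.4 against 446 ± 9.25 RPM, and Sat1, an enzyme of polyamine breakdown, 185 ± 40.0 against 548 ± 105.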

How the data were processed

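RNA was measured in 7 libraries (4 PBS, 3 DT). Per the labels' protocols, each library started from 1 ng of RNA, and a SMARTer kit for low input, 14 cycles of amplification and single 50-base reads followed. STAR 2.5.3a, Partek and mm10 are named per the submitters' processing notes; how reads were assigned to genes, and whether by strand, is not stated there. The deposited file name speaks of FPKM, but its values, as the authors left them, behave as RPM with a floor of 0.0001: the most frequent low value in a library was shared by 1029 to 1206 genes of very different lengths. Taken as 1 read, it implied 33195021 to 51245260 reads per library, so that 3 reads equal 0.0585 to 0.0904 RPM (counting error only). Within 0.02 of a step, 60.5% to 62.5% of low values were whole, too few to rebuild read counts, and a count model was not fitted.

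Genes averaging 1 RPM or more entered limma 3.58.1 (R 4.3.3) with an intensity trend on log2(RPM + 1), for the two-sided contrast of DT minus PBS, with p-values adjusted over all genes by Benjamini-Hochberg. That scale understates changes of low genes. Folds are ratios of mean RPM. The procedure was tested on simulated data with few changed genes and no shift in scaling, which does not cover the broad differences seen here. P-values measure the spread between these samples. Members and lists were chosen with earlier results of these data known. Genes named beside the members were, per pathway list, up to 4 called genes in order of p (or 2 where none passed), per cell type list the 2 most abundant, and the 8 of most like pattern (excluding predicted genes, RIKEN clones, pseudogenes and antigen receptor segments); exceptions are stated, and 1 gene that this rule names is not reported here. Alternatives changed the pseudocount (0.1), filter (none; mean of at least 5), scaling (median-ratio; quantile), trend, sample weights, replicate block and each library in turn.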

Additional observations from a re-analysis of the deposited data

Results flagged for a closer look

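In 53 genes named in the text, the 4 PBS libraries were screened for a value set apart from the other 3 by more than Dixon's 95% limit, which chance passes in about 1 of 20 groups; 3 were set apart. H2-DMb1 was at 21.2 RPM in PBS replicate 1 and at 13.4 to 14.7 RPM in the other PBS libraries, still below all DT libraries. Jchain, the joining chain of secreted antibodies, was at 38.7 RPM in PBS replicate 3 and at 0.783 to 3.63 RPM in the others. Ly6c2, a monocyte surface gene, was at 178 RPM in PBS replicate 1 and at 81.7 to 96.8 RPM in the others.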

How the results depend on the processing

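The 7 class II calls held under all 15 alternatives, with counts of 7 or 8 genes higher (7 with the replicate block) and 0 lower; H2-Oa was added by median-ratio scaling, and Ciita by sample weights and without PBS replicate 1. Samples sharing a number did not deviate together (correlations 0.0103 to 0.0485), so the block has no basis in the data. Genes lower in DT among all tested numbered 2622, but 1689 without a filter, 1321 under median-ratio scaling, 1574 with the block and 1215 to 3613 with 1 library left out (1215 without DT replicate 3, 1502 without DT replicate 1, 1610 without DT replicate 2); genes higher numbered 1894, or 2365 under median-ratio scaling, so rises went from 41.9% to 64.2% of calls; that scaling moved the median of all genes from -0.23 to -0.02. H2-Ob reversed to 0.18 under median-ratio scaling, 0.033 under quantile normalization, 0.040 with the block and without PBS replicate 4, and 0.062 without DT replicate 1 (-0.17 to 0.062 with 1 library left out). The H2-Aa to Cd74 ratio difference (-0.05) reversed to 0.19 under quantile normalization, 0.053 without PBS replicate 1 and 0.0031 without PBS replicate 2, and that of H2-Eb1 (0.18) to -0.020 without PBS replicate 3 (-0.020 to 0.32 with 1 library left out). Accessory genes lower numbered 0, but 1 with sample weights, and 0 to 1 with 1 library left out; promoter factors lower 0, but 1 without the trend; Ciita control genes lower 1, but 0 under median-ratio scaling and with the block, and 0 to 1 with 1 library left out; locus neighbours higher 0, but 1 under median-ratio or quantile scaling or the block, and lower 0, but 1 with sample weights, each 0 to 1 with 1 library left out. The cause was not tested. Of 43 other named genes that were tested, 34 held their direction and side of the threshold under the alternatives run.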

Other observations

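The ratio of H2-Ob to H2-Eb1 in RPM, a pair picked after its values were seen, was almost constant over the PBS libraries. Relative to its mean it varied more over the DT libraries. It was 2.28, 2.32, 2.31 and 2.34 in PBS replicates 1 to 4 and 0.601, 0.547 and 0.519 in DT replicates 1 to 3. In contrast, the ratio of Ciita to H2-Ab1 was 0.149, 0.0569, 0.115 and 0.146 in PBS and 0.104, 0.0812 and 0.122 in DT, with all DT values inside the PBS range. H2-Aa to H2-Ab1, the chains of I-A, was 0.887, 0.831, 1.04 and 0.933 in PBS and 1.42, 1.23 and 1.21 in DT, so the alpha chain gene gained on the beta chain gene in each DT library. None of these ratios was tested.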
